A study of Mus musculus with 4 samples.

Results

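The 6 genes Epcam, Cd24a, Ly6a, Prom1, Procr and Thy1 encode surface proteins by which mammary cells are commonly sorted, and they were chosen here by name, with earlier results of these data known. They are 6 of 21887 protein-coding genes whose reads were counted over the gene span with 2 kb on either side, called the window below. All 6 had enough reads to be tested, and the question was how far chromatin at these genes separates the cell classes and the stages of the mammary gland.

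EpCAM is an adhesion protein of epithelial cells, and CD24 (from Cd24a) is a lipid-anchored glycoprotein that is used together with integrins to part luminal from basal cells. Sca-1 (from Ly6a) and prominin-1 or CD133 (from Prom1) are used to divide luminal cells, with prominin-1 known from hormone-sensing cells. The protein C receptor (from Procr) marks a subset of basal cells and also endothelium and stroma, and CD90 (from Thy1) is found on fibroblasts and on some basal cells. An antibody reads protein at the cell surface, whereas the assay here reads how open the DNA of the gene is, so a level below is neither an RNA nor a protein level.

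The nuclei came from wild-type CD1 mice, an outbred strain, and from cells of the mammary gland sorted for EpCAM on the surface and against lineage markers. The fetal group held 2 libraries of embryonic day 18 and the adult group 2 libraries at 8 weeks of age. Since the cells had been gated on EpCAM, the levels of Epcam do not describe the gland as a whole. The number of mice behind a library was not given in the sources used here, so p-values measure the spread between these libraries.

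The libraries held between 882 and 2804 nuclei and between 6028168 and 19304830 reads in nuclei, with fetal replicate 1 the smallest on both counts. Between 86.9% and 95.3% of the reads belonged to listed nuclei, and no barcode was shared between libraries. The authors had placed the nuclei in 14 classes without names, and marker genes were used to name them. Classes 1 and 8 (adult) and 4 (fetal) were basal-like, with 10, 10 and 7 of 10 basal markers raised. Classes 3 and 7 (adult) and 5 and 9 (fetal) were luminal progenitor-like, with 8, 8, 5 and 6 of 10 markers raised, so the fetal names rest on fewer markers. Classes 2 and 11 (adult) were mature luminal-like, with 9 and 7 of 10 markers raised, and class 10 (adult) was luminal. Class 6, with 56 fetal and 157 adult nuclei, raised 11 of 11 stromal markers and 0 of 9 luminal markers, which goes against the epithelial label of the sort. It also raised 4 of 5 adipocyte, 4 of 9 immune and 3 of 7 endothelial markers. Classes 12 and 13 (fetal) and 14 (adult) stayed unnamed. Class 13 raised 4 of 9 luminal, 3 of 7 endothelial, 3 of 5 adipocyte and 1 of 11 stromal markers. The epithelial classes below are all classes but class 6, so they take in these unnamed ones, whose markers do not settle what they are. Apart from class 6, a class belonged almost wholly to 1 stage, so class and stage cannot be told apart, and since the classes were clustered on these same reads, differences between classes of 1 stage are described without a test. Tests of fetal against adult nuclei of a named kind set different classes against each other, so their p-values do not count the clustering.

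In the mm10 build, Epcam spans chr17:87635979-87651127, Cd24a chr10:43579169-43584265 and Ly6a chr15:74994877-74998031. Prom1 spans chr5:43993621-44102047, Procr chr2:155751125-155755478 and Thy1 chr9:44043384-44048579. No other protein-coding span reached into any of the 6 windows. The nearest spans to Ly6a and Prom1 were those of Ly6i, a gene of the same family, at 11443 bases and Fgfbp1 at 11793 bases.

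RefSeq promoter windows (GRCm38.p6, the assembly of mm10, 250 bases before to 50 bases after a start site) were at hand for Epcam, Prom1 and Procr. The deposited promoter regions, whose levels are given further below, share 0 of the 300 bases shown for Epcam, 122 for Prom1 and 300 for Procr. Procr's region was lower in luminal than in basal-like nuclei, and Epcam's was low in class 6. Prom1's was open in the epithelial groups and low in adult class 6. Capitals mark matches to 8 motifs searched on both strands, namely the GC box GGGCGG, the CCAAT box, the TATA box TATAAA, the AP-1 motif TGANTCA, the grainyhead-like core AACCGG, the TEAD core GGAATG, the E-box CAGGTG and the forkhead motif TGTTTAC.
Epcam, chr17:87635729-87636028, plus strand: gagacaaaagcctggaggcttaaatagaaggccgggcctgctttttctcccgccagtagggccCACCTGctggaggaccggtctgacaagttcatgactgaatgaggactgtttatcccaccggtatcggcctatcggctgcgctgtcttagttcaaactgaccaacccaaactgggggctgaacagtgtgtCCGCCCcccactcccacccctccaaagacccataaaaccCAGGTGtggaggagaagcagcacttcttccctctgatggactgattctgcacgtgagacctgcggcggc
Prom1, chr5:44101687-44101986, minus strand: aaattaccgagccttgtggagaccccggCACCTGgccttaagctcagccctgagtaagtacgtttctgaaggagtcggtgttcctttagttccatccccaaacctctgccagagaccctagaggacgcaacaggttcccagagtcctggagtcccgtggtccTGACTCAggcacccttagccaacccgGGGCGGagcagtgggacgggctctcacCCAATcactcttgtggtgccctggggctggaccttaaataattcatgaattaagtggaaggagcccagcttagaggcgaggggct
Procr, chr2:155750967-155751266, plus strand: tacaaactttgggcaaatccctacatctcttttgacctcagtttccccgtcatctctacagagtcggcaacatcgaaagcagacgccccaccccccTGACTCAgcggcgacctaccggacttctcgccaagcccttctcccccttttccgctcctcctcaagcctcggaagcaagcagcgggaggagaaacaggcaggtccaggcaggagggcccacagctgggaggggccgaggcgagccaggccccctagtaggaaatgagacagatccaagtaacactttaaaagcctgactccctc

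The Epcam window held 2 E-box matches (first bases at -187 and -19 from the start site) and 1 GC box on the opposite strand, at -58. The Prom1 window shown held 1 match each to the E-box, AP-1, GC box and CCAAT motifs, and Procr's held a single AP-1 match at -154. A second RefSeq window of Prom1, chr5:44094719-44095018, which is not shown, held 1 AP-1 match at -189. No matches overlapped. Among 32851 RefSeq promoter windows of this length, 20.2% held the E-box letters, 35.7% the GC box, 37.4% CCAAT and 7.81% the AP-1 letters, so the AP-1 match of Procr and Prom1 is the rarest of these. TATAAA, the grainyhead-like, the TEAD and the forkhead letters were absent from the windows shown. Matches are descriptions of letters, not of bound sites.

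Per kilobase of window, Cd24a and Epcam were the most open of the 6, at means over the libraries of 11.3 and 7.09 CPM per kilobase, where CPM is the usual depth-scaled read count, here relative to all reads in gene windows of the same nuclei. Ly6a (1.58), Procr (1.5), Thy1 (1.19) and Prom1 (0.550 CPM per kilobase) were far lower. Prom1's low value goes with the length of its window, 112427 bases against 7155 to 19149 for the others. Its whole window had 53.8 to 68.7 CPM a library, above the windows of Ly6a, Procr and Thy1. Levels by class below are window CPM, and neighbours in an order are called apart where the values of their libraries did not overlap.

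Epcam was open in all epithelial classes and lowest in class 6. Its highest level was in adult luminal progenitor-like class 7, with 185 and 172 CPM in adult replicates 1 and 2. Class 10 followed at 177 and 171 CPM, and fetal class 9 at 155 and 188 CPM. Among epithelial classes the lowest were the adult basal-like classes, with 51.9 and 62.5 CPM in class 1 and 60.5 and 35.2 CPM in class 8. Fetal basal-like class 4 lay well above both, at 128 and 130 CPM. Class 6 had 12 and 22.7 CPM in the adult libraries and 0 and 22.8 CPM in the fetal libraries, from 0 to 10 reads each. Of 14 pairs of neighbours in the order of 15 class and stage units, 5 were apart.

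Cd24a varied less among the epithelial classes. The highest and lowest epithelial means were 124 CPM in fetal class 5 and 71.0 CPM in adult basal-like class 1, a ratio of 1.74. Only 2 of 14 neighbouring pairs were apart, and both were at the bottom, between class 1 and the class 6 units. Class 6 had 55.1 and 22.8 CPM in the fetal and 5.98 and 18.1 CPM in the adult libraries, from 2 to 8 reads each.

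Prom1 was highest in the mature luminal-like classes, with 94.5 and 87.2 CPM in class 11 and 81.6 and 76.0 CPM in class 2. The luminal progenitor-like class 7 had 37.1 and 42.7 CPM, below both libraries of classes 2 and 11. Class 3, the other adult progenitor-like class, differed between its libraries, at 26.5 and 72.9 CPM, and so did class 10, at 101 and 44.4 CPM. Fetal classes had means between 50.4 and 74.2 CPM outside class 6.

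Ly6a was low in nearly every class. Adult class 6 was highest, with 29.9 and 40.8 CPM from 10 and 18 reads. Mature luminal-like class 2 came next, with 18.6 and 25.3 CPM, and luminal class 10 had 13.2 and 28.2 CPM. Basal-like class 8 followed at 23.9 and 11.5 CPM and unnamed fetal class 13 at 13.1 and 17.3 CPM. The other mature luminal-like class, 11, had 10.2 and 16.7 CPM and overlapped progenitor-like class 7. Progenitor-like classes 3 and 7 had 8.24 to 10.6 CPM in their libraries. The lowest unit was fetal class 12, with 0 and 2.49 CPM from 0 and 4 reads. Only 1 of the 14 neighbouring pairs, the highest unit and class 2, was apart.

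Procr was highest in class 6, with 62.8 and 56.7 CPM in the adult libraries and 55.1 and 15.2 CPM in the fetal libraries. Among other classes, unnamed fetal class 13 led with 30.6 and 28.2 CPM, from 7 and 13 reads. Basal-like classes 4 and 8 followed, at 17.0 and 16.9 CPM in class 4 and 18.3 and 13.8 CPM in class 8. The third basal-like class, class 1, had 11.9 and 14.5 CPM. It overlapped progenitor-like class 3 (16.6 and 11.1 CPM) and mature luminal-like class 2 (12.8 and 11.6 CPM). Progenitor-like class 7 was lowest, at 4.08 and 7.76 CPM.

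Thy1 was most open in class 6, in fetal basal-like class 4 and in unnamed fetal class 12. Adult class 6 had 29.9 and 29.5 CPM, and fetal class 6 had 0 and 53.1 CPM, from 0 and 14 reads. Fetal basal-like class 4 had 35.5 and 20.5 CPM and unnamed fetal class 12, with 4 of 10 basal markers raised, had 20.8 and 21.2 CPM. Adult basal-like classes were lower, at 10.4 and 15.8 CPM in class 1 and 11.0 and 3.07 CPM in class 8. Luminal class 10 was lowest, with 0 and 4.03 CPM.

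**Figure D1:**
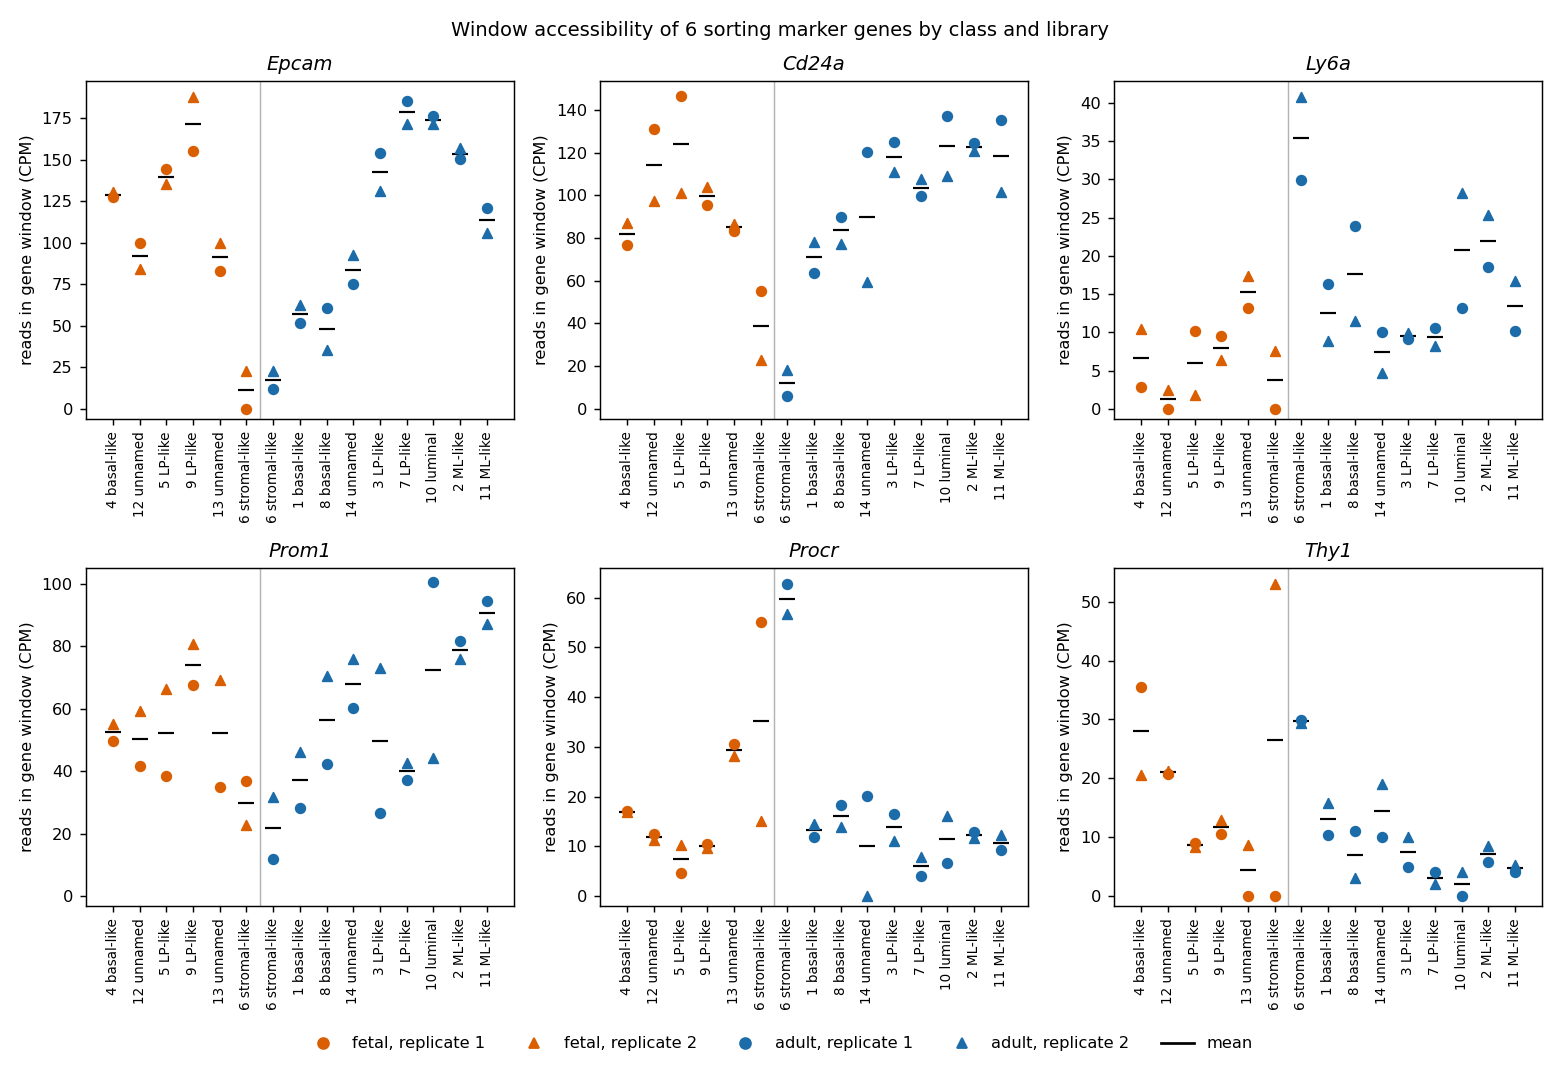
Reads in the window of each gene, in CPM, for each class at the stage it belongs to. Points are libraries, short lines are means, the vertical line parts fetal from adult units, LP stands for luminal progenitor and ML for mature luminal. Epcam and Cd24a drop in class 6, where Procr peaks.

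To set classes side by side within a library, log2(CPM + 2) was compared, and a gene was called apart where the difference was at least 0.5 with 1 sign in each library. In adult nuclei, basal-like against luminal-like classes, Epcam and Cd24a were apart, 2 of the 6 genes, where 22.9% of 18808 genes met the rule. Epcam had 55.8 and 50.2 CPM in basal-like nuclei against 158 and 144 CPM in luminal-like nuclei, a log2 difference of -1.47 ± 0.01 (SD, n = 2 libraries). Cd24a had 75.5 and 77.8 CPM against 118 and 112 CPM, a difference of -0.57 ± 0.09 that lay just inside the rule at -0.51 in adult replicate 2. With 10 in place of 2 added to the CPM, or at a difference of 1, only Epcam was apart. Outside the rule but with 1 sign in both libraries were Prom1, lower in basal-like nuclei at -0.80 and -0.31, Thy1, higher by 0.87 and 0.48, and Procr, higher by 0.45 and 0.33. Ly6a had opposite signs in the libraries, 0.46 and -0.66.

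Between adult luminal progenitor-like nuclei and mature luminal-like ones, 1 of the 6 genes was apart, against 18.4% of all genes. Ly6a had 10.1 and 9.04 CPM in progenitor-like against 16.7 and 22.1 CPM in mature luminal-like nuclei, a log2 difference of -0.88 ± 0.35 (SD, n = 2). Mature luminal-like class 2 lay above both progenitor-like classes in each library, while class 11 overlapped class 7. Prom1 had 33.6 and 56.8 CPM against 84.5 and 80.2 CPM. Its mean difference of -0.88 was as large, but -0.48 in adult replicate 2 lay just outside the rule. Epcam differed by 0.21 ± 0.10 in the other direction. With 10 in place of 2 added to the CPM no member was apart here.

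In fetal nuclei, Procr and Thy1 were apart between basal-like and luminal progenitor-like classes, 2 of 6 genes against 11.7% of all genes. Thy1 had 35.5 and 20.5 CPM in basal-like against 10.1 and 11.5 CPM in progenitor-like nuclei, a log2 difference of 1.19 ± 0.63 (SD, n = 2). Procr had 17.0 and 16.9 CPM against 8.77 and 9.80 CPM, a difference of 0.75 ± 0.10. Epcam, with 128 and 130 CPM against 152 and 172 CPM, differed by -0.32 ± 0.10, far less than in the adult. The fetal basal-like nuclei numbered 132 and 338, so the Thy1 values rest on 25 and 45 reads. With 10 in place of 2 added to the CPM only Thy1 was apart, and at a difference of 1 neither was.

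Class 6 against the epithelial classes of the same library set Epcam, Cd24a and Prom1 apart, all lower, against 12.2% of all genes in this rule over 4 libraries. The log2 differences were -3.62 ± 1.74 for Epcam, -2.29 ± 1.22 for Cd24a and -1.32 ± 0.70 for Prom1 (SD, n = 4). Epcam's mean includes -6.15 in fetal replicate 1, where class 6 had 0 reads and the added 2 sets the value. Prom1 lay just inside the rule there, at -0.54 on 4 reads. Procr was higher in class 6 in all 4 libraries, by 2.35 and 2.12 in the adult and 2.08 and 0.27 in the fetal libraries, and missed the rule by fetal replicate 2. Ly6a and Thy1 were higher in 3 of 4 libraries and had no read in class 6 of fetal replicate 1, which held 23 nuclei of the class. Stromal markers summed to 1727 CPM in class 6 and to between 237 and 523 CPM in the other classes.

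**Figure D2:**
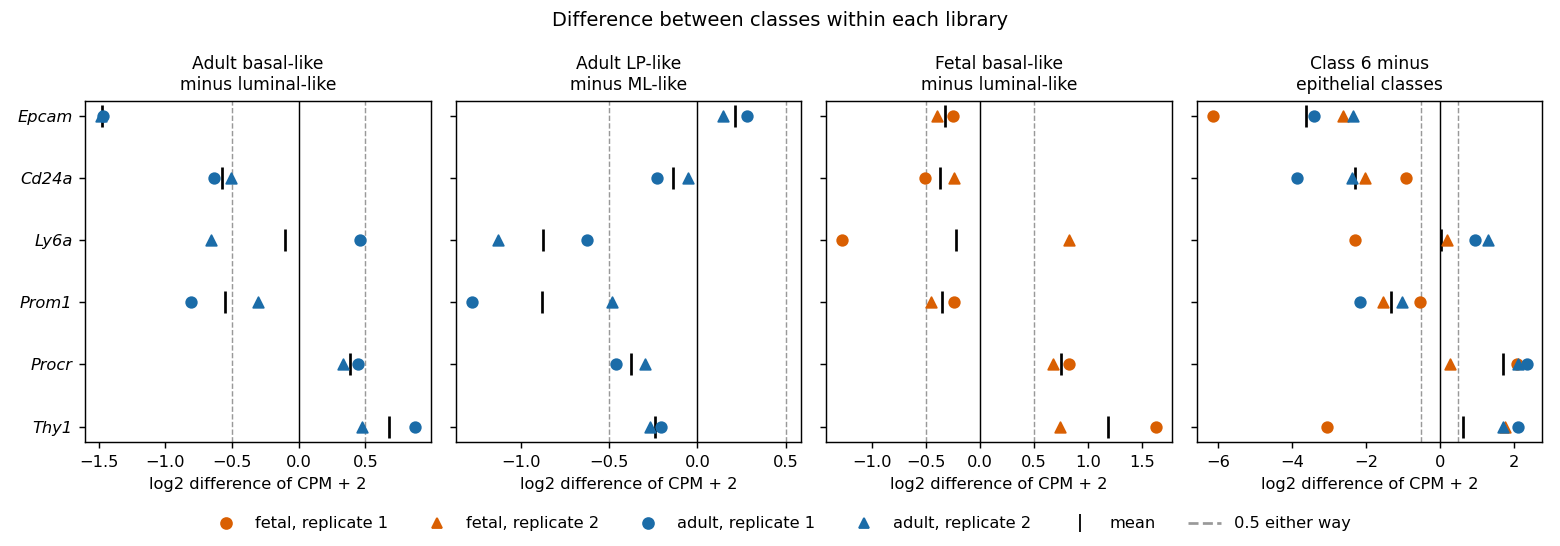
Log2 difference of CPM + 2 between groups of classes within each library, for the 6 genes. Points are libraries, ticks are means and dashed lines mark 0.5 in either direction. Epcam stands out in the adult basal-like comparison at -1.47, and no other member reaches -1 in both adult libraries there.

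In single nuclei the 6 genes gave little separation. Every nucleus was thinned to 2000 reads, which left none out. An Epcam read was then seen in 18 of 335 and 43 of 715 adult basal-like nuclei, or 5.37% and 6.01%. In progenitor-like nuclei it was seen in 17.7% and 15.2% (of 921 and 805 nuclei), and in mature luminal-like nuclei in 15.5% and 16.0%. The basal-like shares lay below all 4 luminal ones, with exact 95% intervals of 3.22% to 8.36% and 4.39% to 8.02%. With all reads the basal-like shares were 9.55% and 9.23%, at median depths of 3926 and 4532 reads, and the progenitor-like shares 25.3% and 27.5%, at 4204 and 5232 reads. In adult class 6, which raised the stromal markers, an Epcam read was seen in 0 of 82 and 2 of 75 thinned nuclei, with upper bounds of 4.40% and 9.30%. Intervals cover counting error only.

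A logistic model of the 6 thinned window counts was fitted on 1 library and scored on the other of the same stage. The area under the curve (AUC), which is 0.5 without separation and 1 with full separation, averaged 0.568 for adult basal-like against luminal-like nuclei (0.572 and 0.564 in replicates 1 and 2). It was 0.529 for adult progenitor-like against mature luminal-like nuclei (0.540 and 0.519) and 0.558 for fetal basal-like against luminal progenitor-like nuclei (0.553 and 0.562). Epcam alone gave 0.552 in the first comparison, and the other 5 genes together gave 0.524. In the second, the 5 genes without Epcam gave 0.537, and in the third 0.540. For comparison, 39 lineage marker genes, which had named the classes and so are no independent yardstick, gave 0.886, 0.827 and 0.681. With all reads of each nucleus the 6 genes gave 0.619, 0.569 and 0.560. That model held no term for depth, and depth differed between the groups, so depth and the genes cannot be told apart in these values.

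**Figure D3:**
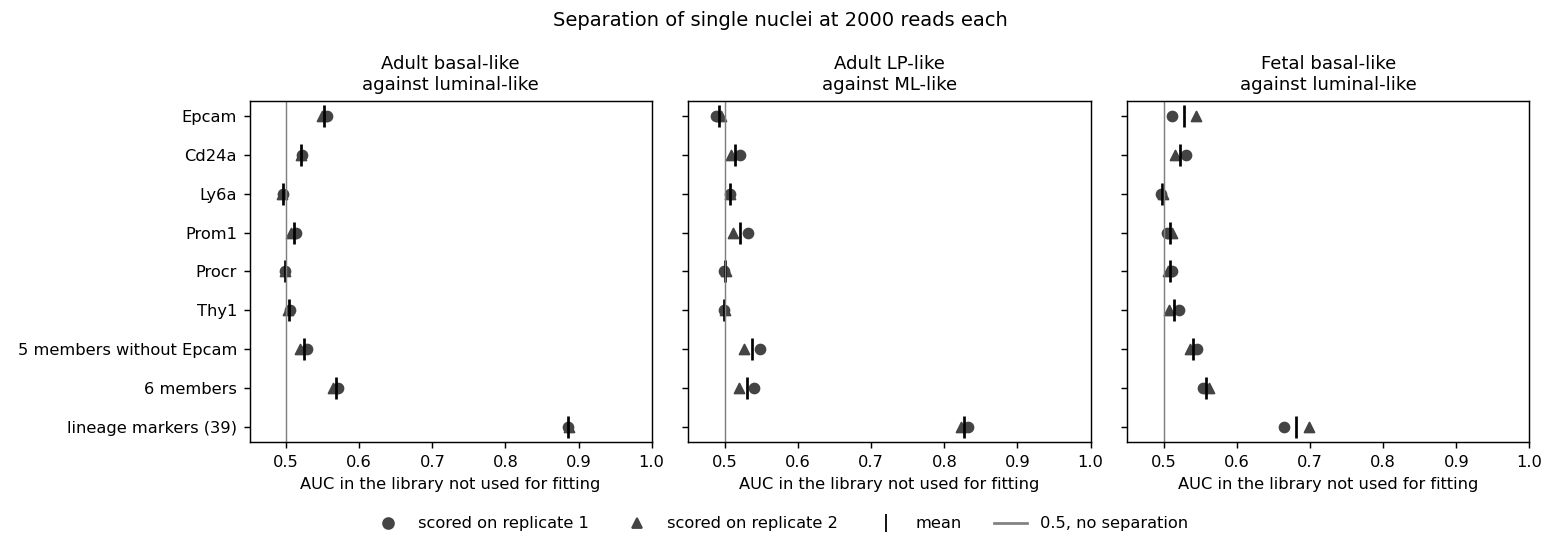
Area under the curve for telling single nuclei of each pair of groups apart, for single genes, for the 6 genes and for 39 lineage markers, each nucleus thinned to 2000 reads. Points are the libraries scored, ticks their means, LP stands for luminal progenitor and ML for mature luminal. The 6 genes lie between 0.519 and 0.572 in all panels, and the lineage markers between 0.664 and 0.887.

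Between the stages, Ly6a and Thy1 changed in opposite directions, and the other 4 genes did not pass the test. With all nuclei of a library summed, 2 of the 6 genes were called by edgeR at an adjusted p under 0.05, where 22.2% of 18808 genes were called. Ly6a had 7.52 and 6.41 CPM in the fetal against 15.0 and 16.3 CPM in the adult libraries, or -1.19 on the log2 scale (SE 0.25, edgeR adjusted p = 0.00425). Thy1 had 14.2 and 15.3 CPM in the fetal against 6.16 and 8.31 CPM in the adult libraries, or 1.02 on the log2 scale (SE 0.26, edgeR adjusted p = 0.0134). Both fetal values lay below both adult values for Ly6a and above them for Thy1. Without fetal replicate 2, which leaves the shallower fetal library alone, neither was called (log2 -1.07 for Ly6a and 0.95 for Thy1). Fewer genes were called over all genes too.

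The 4 other genes had close values at both stages. Epcam had 136 and 147 CPM in the fetal and 141 and 120 CPM in the adult libraries (log2 0.12, SE 0.11). Cd24a had 103 and 96.8 against 111 and 101 CPM (-0.08, SE 0.11), and Procr 12.5 and 12.3 against 12.4 and 13 CPM (-0.04, SE 0.23). Prom1 had 53.5 and 68.9 against 59.1 and 66.3 CPM (-0.02, SE 0.14). The median log2 fold change of the 6 genes was -0.03 and that of all genes tested 0.01. In sums over all nuclei a changed mix of classes and a change within nuclei cannot be told apart.

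Epcam was higher in fetal basal-like nuclei (class 4) than in adult basal-like nuclei (classes 1 and 8). Fetal basal-like nuclei had 126 and 131 CPM and adult ones 56.4 and 50.7 CPM, or 1.28 on the log2 scale (SE 0.23, edgeR adjusted p = 0.000428). Epcam was the only one of the 6 genes called there, where 5.96% of 16497 genes were called. Thy1, with 35 and 20.5 CPM in fetal against 10.8 and 10.1 CPM in adult basal-like nuclei, did not pass (log2 1.34, SE 0.47, edgeR adjusted p = 0.0838). Marker lists were compared between the same classes. The summed CPM of 10 basal markers was 831 in class 4 and 1596 and 1441 in classes 1 and 8. The summed CPM of 9 luminal markers was 601 in class 4 and 675 and 574 in classes 1 and 8, while their median log2 difference from the other classes was -0.68 in class 4 and -0.98 and -0.96 in classes 1 and 8. For 10 luminal progenitor markers that median was 0.16 in class 4 and -0.73 and -0.44 in classes 1 and 8. The part of these markers in the Epcam difference was not tested.

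Within luminal progenitor-like nuclei, Epcam had 151 and 170 CPM in the fetal and 177 and 153 CPM in the adult libraries, with overlap between the stages. Prom1 was the only member called there, where 19.9% of 17649 genes were called. It had 58.1 and 75.9 CPM in the fetal against 34.1 and 56.9 CPM in the adult libraries, or 0.57 on the log2 scale (SE 0.19, edgeR adjusted p = 0.0365). That call was lost with DESeq2 (adjusted p = 0.157) and without any of fetal replicate 1, fetal replicate 2 or adult replicate 1 (adjusted p = 0.0643, 0.493 and 0.384). Thy1 had 9.89 and 11.4 against 4.43 and 5.64 CPM and did not pass (log2 1.08, SE 0.43, edgeR adjusted p = 0.0807). Ly6a did not pass in either kind of nucleus, with log2 fold changes of -0.78 in basal-like and -0.47 in progenitor-like nuclei (edgeR adjusted p = 0.535 and 0.507). In class 6, 1 of the 6 genes, Procr, had enough reads, and edgeR did not call it (adjusted p = 0.759). DESeq2, under the same filter of reads, did not call Procr either and gave it no unadjusted p under 0.05. Of 9813 genes tested in class 6, 7 or 0.0713% were called.

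The difference in Epcam between fetal and adult classes was larger for basal-like than for progenitor-like nuclei. Tested as an interaction with library as a block, a fit added after the data were seen, the log2 fold change was larger by 1.25 in basal-like than in progenitor-like nuclei (SE 0.22, edgeR adjusted p = 1.68e-05). This difference was called for 1 of the 6 members, where 6.18% of 17263 genes were called. It stayed between 1.21 and 1.34 without each library in turn. Kit, a progenitor marker used to name the classes, had a difference of 2.86 in the same direction (edgeR adjusted p = 3.28e-11). Cd14 (0.91) and Tspan8 (0.34), also from that marker list, were not called (edgeR adjusted p = 0.267 and 0.711). Of other surface genes used in sorting, Itga2 (0.83) and Cd44 (0.66) were called in the same direction and Lgr5 (-1.67) in the opposite one. The fit sets class 4 against classes 1 and 8, and classes 5 and 9 against 3 and 7, so stage and class cannot be told apart in it.

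**Figure D4:**
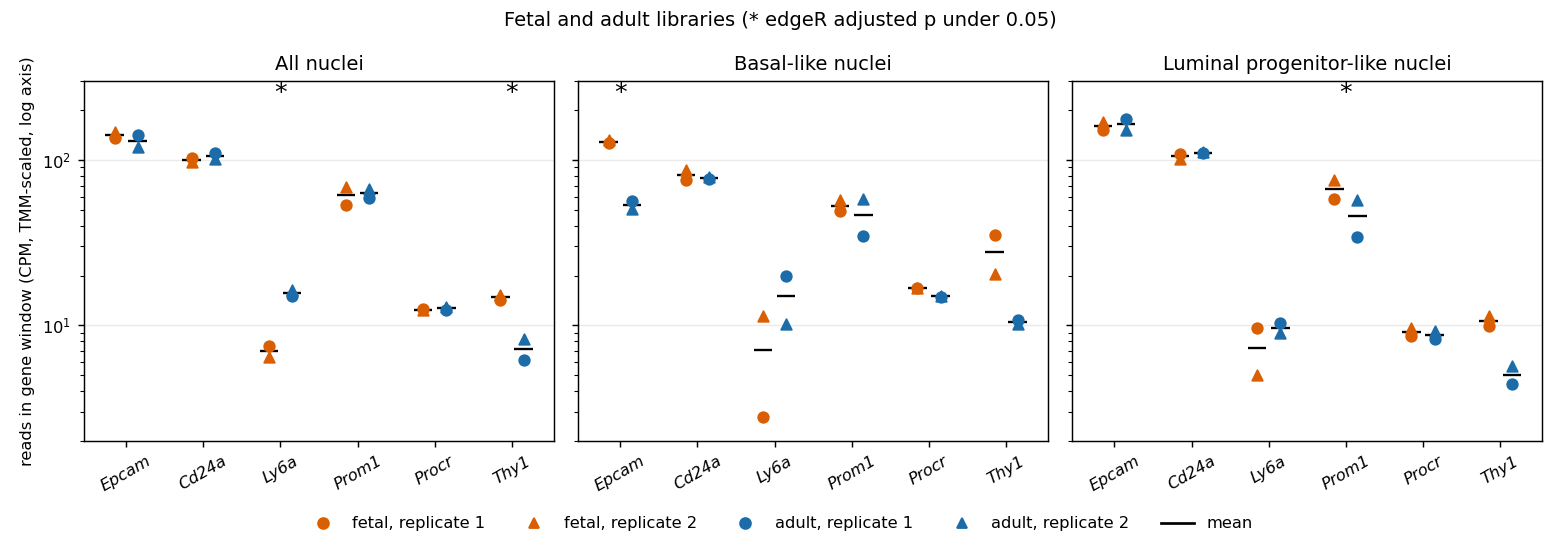
Window CPM scaled by TMM, on a log axis, in fetal and adult libraries for all nuclei, basal-like nuclei and luminal progenitor-like nuclei. Points are libraries, short lines are means and asterisks mark an edgeR adjusted p under 0.05. Epcam parts the stages in basal-like nuclei, at 126 and 131 CPM against 56.4 and 50.7 CPM, while its stages overlap in the other panels.

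Deposited promoter regions gave a sharper picture for some genes. Of the 6 that lie in member windows, 1 differed between the stages, where 21.5% of 18570 promoter regions did. The promoter region of Thy1, chr9:44043063-44044062, which covers the first bases of the span and the sequence before it, had 19.2 and 26.9 CPM in the fetal against 4.85 and 5.42 CPM in the adult libraries. The difference was 2.19 on the log2 scale (SE 0.39, edgeR adjusted p = 1.79e-05). By group, scaled to the reads in promoter regions, it had 54.4 and 51.8 CPM in fetal basal-like nuclei, 39.1 and 27.2 in fetal class 12 and 11.2 and 18.8 in fetal progenitor-like nuclei. Adult basal-like nuclei had 16.5 and 3.48 CPM from 6 and 3 reads, and adult mature luminal-like nuclei 2.82 and 7.40 CPM. Class 6 had 53.7 and 14.6 CPM in the adult libraries, from 6 and 2 reads, and 0 and 126 CPM in the fetal libraries, from 0 and 10 reads.

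The promoter region of Procr, chr2:155750613-155751612, which takes in the whole sequence shown above, separated basal from luminal nuclei at both stages more than its window did. It had 49.5 and 45.2 CPM in fetal and 38.4 and 32.4 CPM in adult basal-like nuclei. Progenitor-like nuclei had 7.11 and 14.7 CPM in the fetal and 15.9 and 14.8 CPM in the adult libraries, and mature luminal-like nuclei 6.35 and 14.2 CPM. The highest values were in adult class 6, at 107 and 146 CPM from 12 and 20 reads. Between the stages it did not change over all nuclei (15.8 and 21.6 against 16.7 and 22.8 CPM, edgeR adjusted p = 0.932).

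Epcam's promoter region, chr17:87636041-87637040, begins just past the sequence shown and lies inside the gene. It was open in adult basal-like nuclei too, at 115 and 118 CPM against 187 and 153 CPM in progenitor-like and 188 and 166 CPM in mature luminal-like nuclei. A distal region further into the gene, chr17:87639657-87640656, was nearly closed in adult basal-like nuclei, with 2.88 and 0 CPM from 2 and 0 reads. There the progenitor-like nuclei had 24.6 and 27.8 CPM and the mature luminal-like nuclei 21.9 and 20.7 CPM of the reads in distal regions. Over all nuclei the promoter region did not pass the stage test (log2 0.30, SE 0.12, edgeR adjusted p = 0.0599). It passed under 6 alternatives, total reads in place of TMM and the replicate block among them, and not under the others. Without each library in turn its log2 fold change ran from 0.17 to 0.41.

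The promoter regions of Cd24a, chr10:43578528-43579527, and Prom1, chr5:44100809-44101808, were open in epithelial groups of both stages. Cd24a's had 79.2 to 196 CPM over all libraries of the basal-like, progenitor-like, mature luminal-like and class 12 nuclei, and in class 6 it had 57.6 and 50.5 CPM in the fetal (2 and 4 reads) and 0 and 14.6 CPM in the adult libraries (0 and 2 reads). Prom1's had 43.9 and 78.8 CPM in adult basal-like, 45.2 and 83.6 CPM in progenitor-like and 81.8 and 94.6 CPM in mature luminal-like nuclei. In class 6 Prom1's had 115 and 63.1 CPM in the fetal (4 and 5 reads) and 0 and 14.6 CPM in the adult libraries (0 and 2 reads). Ly6a's, chr15:74998465-74999464, lies 434 bases from the span at higher coordinates. It received few reads, from 6 to 30 a library, with no stage call (edgeR adjusted p = 0.273). Of the promoter regions of neighbouring genes within 50 kb, chr17:87671883-87672882 near Epcam was higher in fetal nuclei (125 and 115 against 89.95 and 92.3 CPM, log2 0.39, SE 0.14, edgeR adjusted p = 0.0392). The other called, chr15:74954071-74955070 near Ly6a, was higher in adult nuclei (27.4 and 38.0 against 56.9 and 49.9 CPM, log2 -0.65, SE 0.21, edgeR adjusted p = 0.0196).

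Of 78 distal regions tested within 50 kb of a member's span, 22 differed between the stages, where 35.3% of 122865 distal regions differed. Of the 22, 9 were higher in fetal and 13 in adult nuclei. Over all distal regions, 20351 of those called were higher in fetal and 23072 in adult nuclei. Of 14 tested in the windows themselves, 2 differed. Regions named by rule are the called ones with the highest and the lowest fold change of each gene, and others were picked after their values were seen.

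Of 16 distal regions tested near Prom1, 6 were called, 2 higher in fetal and 4 in adult nuclei. Prom1 had the steepest distal difference. A region 48914 bases before its start, chr5:44150961-44151960, had 1.71 and 1.45 CPM in the fetal against 34.7 and 32.0 CPM in the adult libraries (log2 -4.42, SE 0.37, edgeR adjusted p = 8.68e-12). In adult nuclei it was highest in the mature luminal-like group, with 67.7 and 66.0 CPM from 167 and 223 reads. Adult progenitor-like nuclei had 2.00 and 1.95 CPM from 4 and 4 reads, and adult basal-like nuclei 0 and 1.24 CPM. The neighbouring regions chr5:44148063-44149062 and chr5:44146073-44147072 were also highest in mature luminal-like nuclei, with 19.9 and 21.9 CPM and 7.30 and 9.76 CPM in mature luminal-like nuclei and at most 1.95 CPM in the adult basal-like and progenitor-like nuclei. The fetal libraries held no mature luminal-like class, so stage and class cannot be told apart here.

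Other Prom1 regions ran the opposite way. A region 41355 bases before the start, chr5:44143402-44144401, was higher in fetal nuclei (5.99 and 9.85 against 1.46 and 1.18 CPM, log2 2.63, SE 0.55, edgeR adjusted p = 0.000225). It was found in fetal progenitor-like nuclei, at 8.74 and 13.5 CPM, with no read in fetal basal-like nuclei, and in fetal class 12 at 0 and 10.5 CPM, from 0 and 9 reads. Inside the gene, chr5:44068903-44069902 was also higher in fetal nuclei (6.85 and 15.2 against 1.82 and 5.24 CPM, log2 1.66, SE 0.44, edgeR adjusted p = 0.00299). In the adult that intragenic region was open in basal-like nuclei, at 12.9 and 13.6 CPM, and nearly closed in mature luminal-like nuclei, at 0.41 and 0.59 CPM. The Prom1 window therefore holds both this region, low in mature luminal-like nuclei, and the promoter region, open in them and in the other epithelial groups.

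Near Ly6a, 6 of 11 distal regions tested were called, where 35.3% of all distal regions were. Of these 6, 5 were higher in adult nuclei. The region inside the gene, chr15:74994938-74995937, had 5.56 and 4.2 CPM in the fetal against 15.3 and 13.8 CPM in the adult libraries (log2 -1.62, SE 0.38, edgeR adjusted p = 0.000746). The steepest, chr15:74962186-74963185, had 0.43 and 0.32 against 3.47 and 3.54 CPM (log2 -3.22, SE 1.01). The 1 region with the opposite sign, chr15:75000130-75001129, lies 2099 bases from the span at higher coordinates and so just outside the window (5.56 and 5.49 against 0.73 and 1.57 CPM, log2 2.19, SE 0.66). Its reads in the adult came mainly from progenitor-like nuclei, with 2 and 12 reads, and none from basal-like nuclei.

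Cd24a, whose window did not change, had 4 called distal regions of 11 tested, where 35.3% of all were called. Of these 4, 3 were higher in fetal nuclei. The highest fold change was at chr10:43601743-43602742, 17478 bases past the gene, with 15.4 and 18.1 CPM in the fetal against 3.83 and 1.18 CPM in the adult libraries (log2 2.82, SE 0.43, edgeR adjusted p = 1.69e-06). Fetal class 12 had 62.5 and 15.1 CPM there, and adult basal-like nuclei no read. The lowest was at chr10:43537322-43538321 (2.57 and 1.45 against 7.66 and 6.68 CPM, log2 -1.95, SE 0.55). A region 437 bases past the gene, chr10:43584702-43585701, did not pass between the stages but differed among adult nuclei. It had 17.0 and 25.4 CPM in mature luminal-like, 6.01 and 7.80 CPM in progenitor-like and no read in basal-like nuclei.

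Near Epcam, 3 of 19 distal regions tested were called, where 35.3% of all were. Epcam's 3 called distal regions were all higher in adult nuclei and lay before the gene. The lowest was at chr17:87605783-87606782 (1.71 and 2.26 against 9.85 and 9.30 CPM, log2 -2.19, SE 0.49) and the highest at chr17:87610449-87611448 (8.98 and 4.84 against 19.9 and 17.2 CPM, log2 -1.53, SE 0.35). At the second, adult basal-like nuclei had 2.88 and 1.86 CPM against 19.0 and 17.6 CPM in progenitor-like and 23.5 and 24.6 CPM in mature luminal-like nuclei.

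Procr had 1 called distal region of 8 tested, chr2:155742999-155743998, with few reads (2.57 and 4.84 against 0.73 and 0.52 CPM, log2 2.61, SE 0.88). Thy1 had 2 of 13 tested, both higher in fetal nuclei. These were chr9:44012359-44013358 (5.13 and 9.69 against 1.82 and 2.10 CPM, log2 1.97, SE 0.52) and chr9:44071515-44072514, which overlaps the neighbouring gene Usp2 (32.9 and 35 against 13.3 and 14.3 CPM, log2 1.3, SE 0.24). The second overlapped between the stages in basal-like nuclei, at 37.4 and 27.2 CPM in the adult and 41.6 and 25.1 CPM in the fetal libraries. In progenitor-like nuclei it averaged 34.2 CPM in the fetal and 20.2 CPM in the adult libraries. It was low in mature luminal-like nuclei, at 2.03 and 4.14 CPM.

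**Figure D5:**
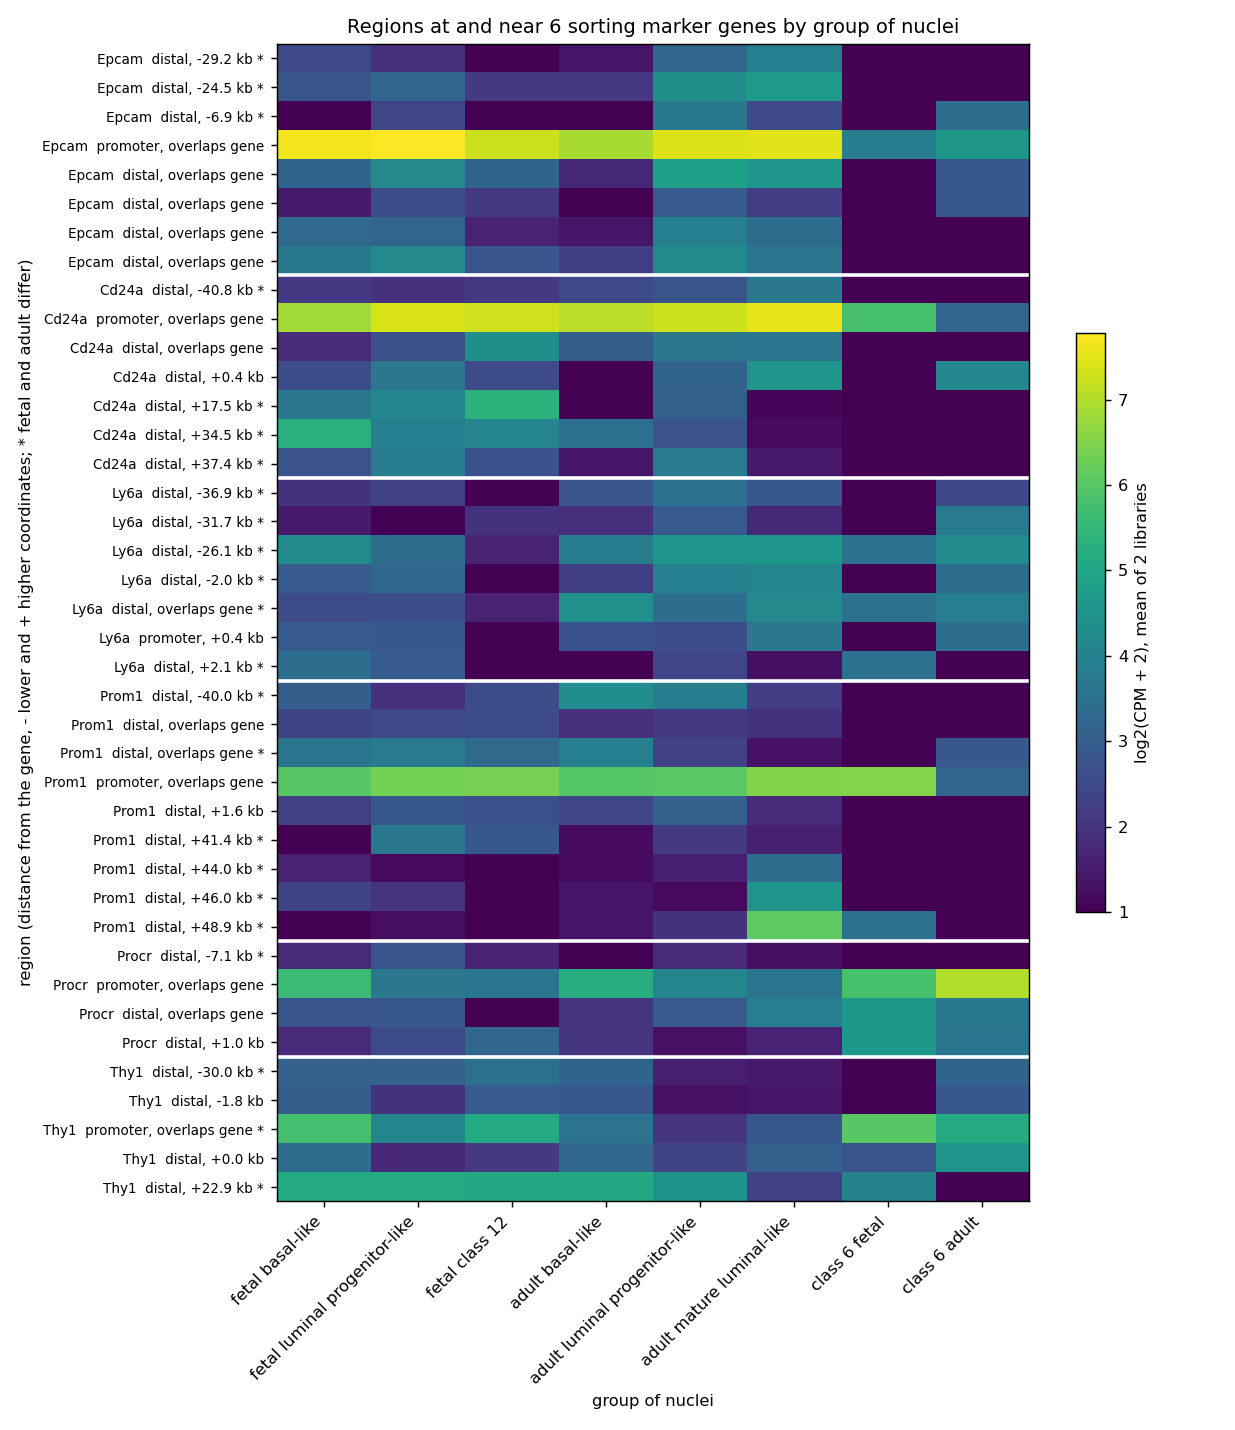
Mean log2(CPM + 2) over 2 libraries of the tested regions in the windows and the called distal regions within 50 kb of each gene, by group of nuclei. Rows give the gene and the distance from its span, asterisks mark regions called between the stages, and class 6 values rest on few reads. The Prom1 row farthest from the span is bright in adult mature luminal-like nuclei, at 67.7 and 66.0 CPM.

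Cicero scores, which the authors deposited for pairs of regions over all nuclei, measure how far 2 regions open in the same nuclei. Of the 6 member promoter regions, 4 had at least 1 score of 0.1 or more, where 54.8% of 19199 promoter regions did, and the scores have no spread over libraries. Epcam's had 7 such partners, Cd24a's 5, Procr's 2 and Thy1's 1, while Prom1's best score was 0.0943 and Ly6a's 0.0155. The median of the best scores over all promoter regions was 0.114.

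The strongest partner of Procr, with 0.220, was chr2:155716775-155717774 inside Edem2, which averaged 75.4 CPM in adult class 6 (119.8 and 31.0 CPM, from 17 and 6 reads), had no read in fetal class 6 and averaged at most 1.14 CPM in the basal-like and luminal groups. Thy1's strongest partner, with 0.182, was chr9:44139911-44140910 inside Mcam, an adhesion gene of muscle-like and vessel-wall cells. It averaged 46.3 CPM in fetal and 29.2 CPM in adult basal-like nuclei, 56.3 CPM in fetal class 12 and 1.90 CPM in mature luminal-like nuclei. Progenitor-like nuclei averaged 12.8 CPM there in the fetal and 0.49 CPM in the adult libraries. Class 6, where the Thy1 window was among the most open, averaged 0 CPM there at both stages. Its next partners were the Usp2 region named above (0.0898) and chr9:43777344-43778343 inside Nectin1 (0.0845).

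Epcam's strongest partner was the distal region chr17:87530105-87531104 (0.206), followed by chr17:87603172-87604171 (0.182) and the promoter of Calm2 at chr17:87446458-87447457 (0.181). Cd24a's were the promoter of Qrsl1 at chr10:43901139-43902138 (0.177), chr10:43739519-43740518 (0.143) and the region just past the gene named above (0.128). The latter pair of distal partners averaged 35.2 and 21.2 CPM in mature luminal-like nuclei and had no read in adult basal-like nuclei. In adult class 6, where the Cd24a window was lowest, they averaged 27.2 and 15.5 CPM, the second from 0 and 6 reads. Prom1's were chr5:44426986-44427985 (0.0943), chr5:44181214-44182213 inside Tapt1 (0.0717) and chr5:43807554-43808553 (0.0542). The Tapt1 region averaged 41.8 CPM in mature luminal-like nuclei and at most 5.19 CPM in the basal-like, progenitor-like and class 12 groups. The mature luminal-like region 48914 bases before Prom1's start was not among these partners. Procr's other partners were chr2:156232992-156233991 (0.116) and the promoter of Phf20 at chr2:156196135-156197134 (0.0802). Ly6a's 3 partners, near Slurp1, Slurp2 and Psca, all scored at or below 0.0155.

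Among 16 other surface genes used in mammary sorting, 7 were called between the stages, 2 higher in fetal and 5 in adult nuclei, where 22.2% of all genes were called. Lgr5, a receptor known from stem and progenitor cells, had 172 and 198 CPM in the fetal against 54.9 and 73.0 CPM in the adult libraries (log2 1.53), and Ngfr, a neurotrophin receptor of basal cells, was higher in fetal nuclei by 0.46. Cd200 (-1.13), Cd14 (-1.05), Cd47 (-0.77), Cd55 (-0.51) and Itga2 (-0.40) were higher in adult nuclei. With the replicate number as a block 11 of the 16 were called, and calls over all genes rose from 4174 to 6421 of 18808. By the rule for class differences, 7 of these 16 were apart between adult basal-like and luminal-like nuclei, 9 between adult progenitor-like nuclei and mature luminal-like ones and 2 between fetal basal-like and progenitor-like nuclei. The shares of all genes in these comparisons were 22.9%, 18.4% and 11.7%. Kit, Cd14 and Tspan8 are also in the progenitor list that named the classes, so their part of these counts (Kit in the first comparison, all 3 in the second) was set by the naming.

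The levels of the 6 genes over the 14 classes, as log2(CPM + 2) were most alike for Epcam and Cd24a. Epcam and Cd24a ran together (Pearson r = 0.88 over 14 classes), Cd24a and Prom1 less so (r = 0.77), and Procr ran against both Epcam (r = -0.70) and Cd24a (r = -0.74). Procr was weakly like Ly6a (r = 0.54) and Thy1 (r = 0.41), while Ly6a and Thy1 were not alike (r = -0.31). Among the 13316 to 13323 genes of other loci compared per member, those most like Epcam were Rreb1 (r = 0.97), Cldn4, a tight-junction gene (0.95), and Cracdl (0.95). Those most like Cd24a were Tom1l1 (0.96), Map3k9 (0.96) and Il17rb (0.95), and for Prom1 they were Slc35f3 (0.94), Otog (0.91) and Lmo7 (0.91). Procr was most like Itga5, an integrin of fibronectin binding (0.90), Tbc1d2b (0.90) and Emilin2 (0.90), Thy1 most like Actr6 (0.88), Cspg4, a proteoglycan of pericytes (0.86), and Tspan11 (0.85), and Ly6a most like Slc22a21 (0.85), Vma21 (0.84) and Atp13a3 (0.84). The classes share libraries, and classes with few reads add noise to these values. Class 6 is among the 14 and was lowest for Epcam, Cd24a and Prom1 and highest for Procr, so it weighs on these values. They were not computed without it.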

How the data were processed

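Single-nucleus ATAC-seq reads of 2 fetal and 2 adult libraries were used as deposited. Per the submitters' processing notes, the build was mm10 and Bowtie2, MACS2 and bedtools were used, with roles and versions not given in the sources used here. The authors deposited reads as intervals with barcodes, a class for each nucleus and co-accessibility scores from Cicero for pairs of regions, pooled over all nuclei. Counts over each window (span plus 2 kb) and over the authors' deposited regions were computed here for the listed nuclei, with depth of 6028168 to 19304830 reads a library. No doublet caller was run. Labels name no batch beyond replicate number.

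Stage tests summed counts per library and used edgeR 4.0.16 (quasi-likelihood, TMM, mean of at least 10 reads, R 4.3.3), with Benjamini-Hochberg adjustment over all features at 0.05, and SE as the fold change over the root of its F statistic. DESeq2 1.42.0 was an alternative, as were scaling, filters, flanks, midpoints, counting nuclei once, a replicate block and leaving out each library. Where that leaves 1 library at a stage, it is taken to vary like the others. Logistic models used scikit-learn 1.9.0. The stage test was also run on simulated data, with the outcome not given here.

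The members and lists were chosen with earlier results of these data known. Named were the members, other sorting genes called between the stages, the 3 genes most like each member, each member's promoter regions, its called distal regions of highest and lowest fold change, and its 3 best Cicero partners. A further list of genes is not reported here.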

Additional observations from a re-analysis of the deposited data

Results flagged for a closer look

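The fetal against adult difference in Epcam was larger for basal-like than for luminal progenitor-like nuclei. The log2 fold change from adult to fetal was 1.28 in basal-like and -0.03 in luminal progenitor-like nuclei, and the difference of 1.25 passed the interaction test (SE 0.22, edgeR adjusted p = 1.68e-05, 2 libraries a stage). Without each library in turn the difference ran from 1.21 to 1.34, with edgeR adjusted p from 0.0003 to 0.000733. Epcam was higher in basal-like nuclei of both fetal libraries than of both adult libraries. Each kind is made of other classes at each stage, so stage and class cannot be told apart here.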

How the results depend on the processing

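Of the single-gene values, 481 stayed on the same side of their threshold or within the spread between libraries under the alternatives, 17 moved, 7 gained and 6 lost a call, and none changed direction with a call. Of the counts, 90 stayed within 1.5 times and 33 did not, and unless a value shows otherwise the cause was not tested. Without fetal replicate 2, which leaves 1 fetal library, Ly6a and Thy1 were not called in all nuclei, and fewer genes were called over all genes too. In luminal progenitor-like nuclei the call of Prom1 was lost without some single libraries. With DESeq2 0 members were called there (1967 of 17306 over all genes). In basal-like nuclei 2 members were called when each nucleus counted once per gene (1511 of 14823 over all genes). The samples share only a replicate number (r = 0.285 between deviations of same-numbered libraries over 16711 genes, from only 2 pairs). With the replicate block 11 other sorting genes were called in place of 7, while calls over all genes rose from 4174 to 6421. Member promoter regions called were 2 in place of 1, while calls over all promoter regions rose from 3992 to 4294 of 18570. Member promoter calls were also 2 with total reads and by read midpoints (3932 of 18570 and 3950 of 18332 over all promoter regions). Their number also changed when some libraries were left out. Distal calls, 22 in all, ran from 14 (without fetal replicate 2) to 21 without each library, and were 10 of 78 with DESeq2 (24872 of 122865 over all distal regions), 7 of 23 with a mean of at least 50 reads (15301 of 28608), 7 of 38 within 20 kb and 43 of 148 within 100 kb. Without each library in turn, fewer regions were called over all distal regions too. The number of other sorting genes called also changed when single libraries were left out, as did calls over all genes. Members apart between adult basal-like and luminal-like nuclei were 1 with 10 added to the CPM, 1 at a log2 difference of 1 and 1 with nuclei counted once (15.4%, 6.93% and 20.8% of all genes), and 3 to 4 in 1 library alone (35.9% and 42.9%). Between progenitor-like and mature luminal-like nuclei they were 0, 0 and 2 (12.3%, 5.43% and 16.8%), and 1 to 2 in 1 library (30.6% and 31.6%). In the fetal comparison they were 1 with 10 added and 0 at a difference of 1 (5.68% and 1.23%), and 3 to 4 in 1 library (25.6% and 40.1%). For class 6 they were 1 at a difference of 1 (4.43%) and 3 to 4 without each library (17.2% to 18.7%). The rule needs 1 sign in every library, so fewer libraries make it easier to meet. The AUC of the 6 genes was 0.619 and 0.569 with all reads in the adult comparisons, where depth differed between the groups. It was 0.555 (adult basal-like) and 0.546 (fetal) over gene spans without flanks. A window of 1 kb on either side of the gene start was planned but not run for the stage tests, class differences or AUC, since the gene table used gives no strand. Depth limits Ly6a, Procr and Thy1 most, which had between 35 and 232 reads in a library, and class 6, where members other than Procr had too few reads to test.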
